A study of Mus musculus with 7 samples.

Results

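The genes described here are the 6 Iroquois transcription factor genes, *Irx1* to *Irx6*, and 3 genes of the transient outward potassium current, *Kcnd2*, *Kcnd3* and *Kcnip2*. They make 9 of the 20927 entries, each counted as a gene, that were left in the count table after repeats with equal counts were removed. Of the 9, 8 passed the filter on low counts. They were listed by name, as Iroquois genes and channel genes that Iroquois factors are known to repress, and this list was selected from earlier results of the same A178D against WT comparison, in which *Irx5* was higher and *Kcnd2* lower. Their values are therefore given as a description, with no test.

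RNA was extracted from the left ventricle of 3 WT mice (replicates 1, 3 and 4 in the labels) and 4 mice homozygous for the titin missense variant A178D (replicates 1 to 4). The labels give the strain of all 7 mice as C57BL/6J. By the study's methods the allele was made by CRISPR editing in C57BL/6N embryonic stem cells, so that the line descends from edited cells and was then crossed to C57BL/6J. Heterozygous hearts were not analysed here, no drug treatment is named in the labels of these samples, and the age and sex of the mice are not given in the sources used here. Each sample is a separate heart. The WT libraries held 51797208, 54245530 and 41102868 counts in replicates 1, 3 and 4, and the A178D libraries held 40623300, 52345529, 42174448 and 33080675 counts in replicates 1 to 4. A178D replicate 4 was thus the shallowest library and WT replicate 3 the deepest.

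Iroquois proteins are homeodomain transcription factors, and their genes lie in a pair of clusters in the mouse genome. In the mouse ventricle *Irx5* is known to be more active towards the inner wall, where it represses *Kcnd2*, so that the fast transient outward current is stronger in the outer wall. This current is carried by Kv4 channels, whose pore is built from the products of *Kcnd2* and *Kcnd3* and whose traffic and gating depend on the accessory protein KChIP2, the product of *Kcnip2*.

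The label left ventricle was checked against markers. Levels are given as CPM, the counts of a gene scaled to a common library size. The summed level of 8 ventricular myocyte genes was 84930, 91100 and 90470 CPM in WT replicates 1, 3 and 4 and 84550, 84620, 83160 and 91220 CPM in A178D replicates 1 to 4. These groups overlapped. *Myh6*, the cardiac myosin heavy chain, was the most abundant of them. Its own groups did not overlap, with means of 40000 CPM in WT and 37200 CPM in A178D (log2 fold change -0.11, SE 0.06). Of the 8 genes 0 passed edgeR's test at an adjusted p under 0.05, with 0 at an unadjusted p under 0.05. DESeq2 and limma-voom also called 0. The atrial markers *Myl7* and *Sln* stood at or near 0, at most 0.152 CPM in any heart, and of 4 atrial markers 2 were tested. Both had an unadjusted p under 0.05, and 1, *Nppa*, was called higher by edgeR, while DESeq2 and limma-voom also called 1 each. The other, *Myl4*, an atrial myosin light chain gene named after its values were seen, stood at 1.90, 1.89 and 1.85 CPM in WT replicates 1, 3 and 4 and at 4.01, 2.14, 2.60 and 3.06 CPM in A178D replicates 1 to 4. Its groups did not overlap, and it was not called (log2 fold change 0.65, SE 0.23, edgeR, Benjamini-Hochberg adjusted p = 0.171). A share of atrial tissue in the samples was not tested.

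*Irx5* was higher in every A178D heart than in every WT heart. Its level was 9.46, 7.98 and 8.02 CPM in WT replicates 1, 3 and 4, and 19.2, 19.0, 18.8 and 23.7 CPM in A178D replicates 1 to 4. The groups did not overlap, 3 of the A178D hearts lay close together and replicate 4 stood above them. The means were 8.49 ± 0.84 CPM (SD, n = 3) in WT and 20.2 ± 2.36 CPM (SD, n = 4) in A178D, a ratio of 2.38. On the log2 scale the fold change was 1.25 (standard error, SE, 0.12). These levels rest on 326 to 497 counts in the WT libraries and on 768 to 1002 counts in the A178D libraries. Counts may hold each fragment by both ends, and the fragments are then fewer than the counts. In ventricular tissue as a whole, fewer cells of a type and less RNA per cell cannot be told apart, nor can a change within cells from a change in the share of inner and outer wall in the sample.

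*Irx3*, known for its part in fast conduction through the ventricular conduction system, lies in the same cluster as *Irx5*. It stood at 35.3, 35.9 and 38.6 CPM in WT replicates 1, 3 and 4 and at 52.5, 61.2, 59.9 and 69.1 CPM in A178D replicates 1 to 4. All A178D hearts were again above all WT hearts, with replicate 4 highest and replicate 1 lowest. The means were 36.6 ± 1.75 CPM (SD, n = 3) and 60.7 ± 6.78 CPM (SD, n = 4), with a log2 fold change of 0.73 (SE 0.09). The ratio of the means was 1.66, smaller than that of *Irx5*. The ratio of *Irx3* to *Irx5* CPM accordingly ran from 3.73 to 4.81 in WT and from 2.73 to 3.22 in A178D.

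*Irx6*, the remaining gene of that cluster, was at the floor of detection. It had 4, 2 and 2 counts in WT replicates 1, 3 and 4 and 2, 0, 0 and 2 counts in A178D replicates 1 to 4. A count of 0 allows a level of up to 3 counts, which is 0.0569 CPM in A178D replicate 2 and 0.0703 CPM in replicate 3. Low counts in this table may hold each fragment by both ends, and the bound is then 6 counts, or 0.114 and 0.141 CPM in these hearts. These floors cover counting error only, and no fold change is given, since a difference was not detectable at this depth.

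*Irx4*, a gene known to be restricted to ventricular myocardium, differed little. Its level was 55.6, 51.7 and 43.1 CPM in WT replicates 1, 3 and 4 and 53.2, 51.8, 54.5 and 63.5 CPM in A178D replicates 1 to 4. The groups overlapped, and the 3 lower A178D hearts lay within the WT range. The log2 fold change was 0.15 (SE 0.10), and it was 0.05 without WT replicate 4, 0.08 without A178D replicate 4 and 0.23 without WT replicate 1.

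*Irx1* and *Irx2*, neighbours in the other cluster, were the least abundant of the Iroquois genes that passed the filter. *Irx1* stood at 2.28, 5.58 and 6.30 CPM in WT replicates 1, 3 and 4 and at 6.52, 7.72, 4.73 and 6.49 CPM in A178D replicates 1 to 4. *Irx2* stood at 1.24, 3.32 and 3.37 CPM in the same WT hearts and at 3.50, 4.69, 2.69 and 3.95 CPM in the A178D hearts. For both genes the groups overlapped, WT replicate 1 was far below the other WT hearts, A178D replicate 2 was highest and A178D replicate 3 was lowest among the A178D hearts. The log2 fold changes were 0.44 (SE 0.27) for *Irx1* and 0.50 (SE 0.30) for *Irx2*. Without WT replicate 1 they were 0.11 and 0.15, without WT replicate 3 they were 0.59 and 0.71, and without WT replicate 4 they were 0.70 for both.

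The pair moved together from heart to heart. The ratio of *Irx1* to *Irx2* CPM was 1.85, 1.68 and 1.87 in WT replicates 1, 3 and 4 and 1.87, 1.65, 1.76 and 1.64 in A178D replicates 1 to 4. It thus stayed in a narrow range over hearts in which the levels themselves varied widely. Within genotypes the SD of log2 CPM was 0.553 for *Irx1* and 0.583 for *Irx2*, larger than in 92.4% and 93.2% of the tested genes. For *Irx3*, *Irx4* and *Irx5* it was 0.133, 0.157 and 0.152, near the median of 0.146 over all tested genes.

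**Figure D1:**
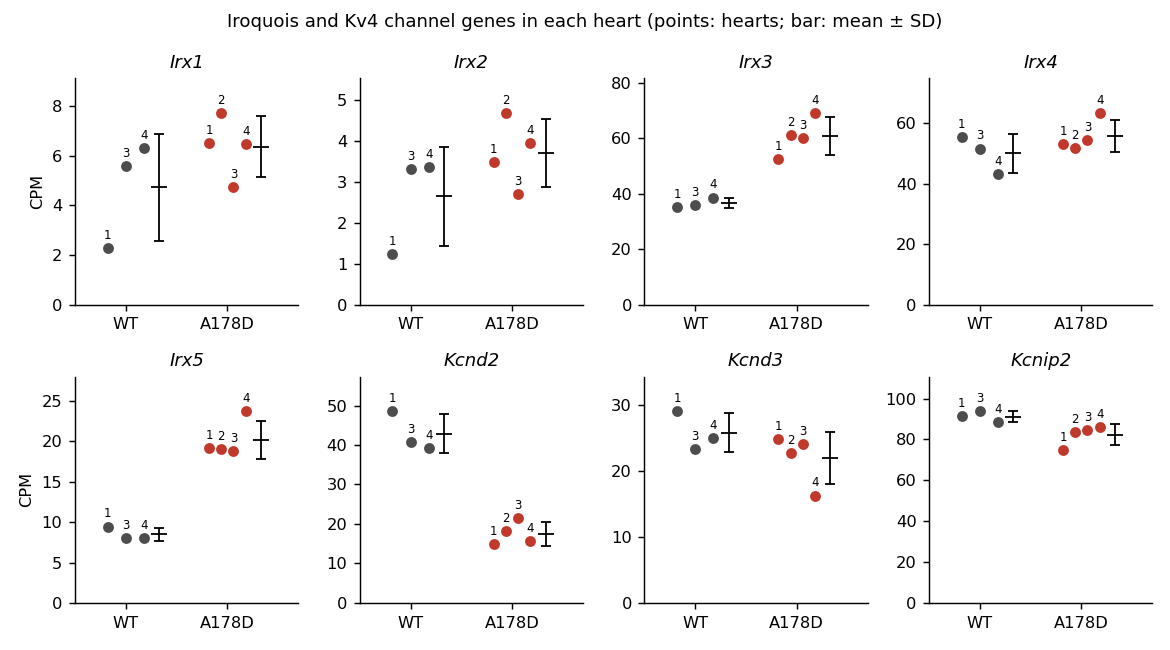
CPM (vertical axes, each from 0) of the 8 genes that passed the filter in each heart, with points numbered by replicate and the mean and SD of each genotype as bars (WT n = 3, A178D n = 4). *Irx3*, *Irx5*, *Kcnd2* and *Kcnip2* show no overlap between genotypes, and WT replicate 1 lies low for *Irx1* (2.28 CPM) and *Irx2* (1.24 CPM).

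Of the channel genes, *Kcnd2*, which encodes the main Kv4 pore subunit of the mouse ventricle, differed most. It stood at 48.6, 40.9 and 39.2 CPM in WT replicates 1, 3 and 4 and at 14.8, 18.2, 21.6 and 15.7 CPM in A178D replicates 1 to 4. Every A178D heart was well below every WT heart, with no overlap. The means were 42.9 ± 4.99 CPM (SD, n = 3) in WT and 17.6 ± 3.05 CPM (SD, n = 4) in A178D. The WT mean was 2.44 times the A178D mean, and the log2 fold change was -1.29 (SE 0.12). The counts ran from 1592 to 2552 in WT and from 508 to 958 in A178D, and may likewise stand for fewer fragments.

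*Kcnd3*, which encodes the other Kv4 pore subunit of the ventricle, stood at 29.0, 23.3 and 25.0 CPM in WT replicates 1, 3 and 4 and at 24.8, 22.7, 24.0 and 16.2 CPM in A178D replicates 1 to 4. The groups overlapped, and A178D replicate 4 was well below the other 3. In that heart long transcripts ran low in general, with a median log2 difference from the other A178D hearts of -0.18 over tested genes with transcripts of 4866 bases or more (*Kcnd3* has 7169), against 0.16 over those of up to 2263 bases. *Kcnd2*, with 5152 bases, also falls among these long transcripts. How far this bears on either gene was not tested. The log2 fold change of *Kcnd3* was -0.23 (SE 0.13). It was -0.11 without A178D replicate 4, -0.13 without WT replicate 1 and -0.16 with offsets for length and GC content. That of *Kcnd2* was -1.24 both without A178D replicate 4 and with these offsets.

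*Kcnip2*, the gene of the accessory subunit, stood at 91.4, 93.8 and 88.6 CPM in WT replicates 1, 3 and 4 and at 75, 83.8, 84.8 and 86.0 CPM in A178D replicates 1 to 4. The groups did not overlap, but the gap between them was narrow, and A178D replicate 1 was the lowest heart. The means were 91.2 ± 2.61 CPM (SD, n = 3) and 82.4 ± 5.03 CPM (SD, n = 4), and the log2 fold change was -0.15 (SE 0.07). *Kcnip2* varied little between hearts of a genotype, with an SD of log2 CPM of 0.075, which was larger than in 12.4% of tested genes.

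In the fit over all 13894 tested genes (edgeR's quasi-likelihood test, Benjamini-Hochberg adjusted p under 0.05), 2.35% of genes were called, 1.04% as higher and 1.31% as lower in A178D. Of the 8 Iroquois and Kv4 genes tested, 2 were among those called higher (*Irx3* and *Irx5*) and 1 among those called lower (*Kcnd2*). The genotypes did not overlap in CPM for 16.1% of all tested genes, and for 4 of the 8. Nothing is read from these counts, since the genes were chosen with this comparison known.

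The relation of *Irx5* to *Kcnd2* was followed heart by heart. The ratio of *Irx5* to *Kcnd2* CPM was 0.195, 0.195 and 0.205 in WT replicates 1, 3 and 4, and 1.30, 1.05, 0.871 and 1.51 in A178D replicates 1 to 4. Per length, as RPKM, the ratio was 0.321 to 0.337 in WT and 1.43 to 2.49 in A178D, so that *Kcnd2* exceeded *Irx5* in every WT heart and *Irx5* exceeded *Kcnd2* in every A178D heart. The ratio hardly varied among WT hearts, where replicate 1 had both the highest *Irx5* and the highest *Kcnd2* level.

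Within the A178D hearts the order was different. From high to low, *Irx5* ran through replicates 4, 1, 2 and 3, and *Kcnd2* through replicates 3, 2, 4 and 1. Replicate 3 had the lowest *Irx5* and the highest *Kcnd2*, but replicate 4, with the highest *Irx5*, did not have the lowest *Kcnd2*. The *Irx5* levels of replicates 1, 2 and 3 lay within 18.8 to 19.2 CPM, while their *Kcnd2* levels spread from 14.8 to 21.6 CPM. The 7 hearts form separate clusters by genotype in these 2 genes, so no correlation over all of them is given. The relation was not tested within a genotype, which holds 3 or 4 hearts.

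**Figure D2:**
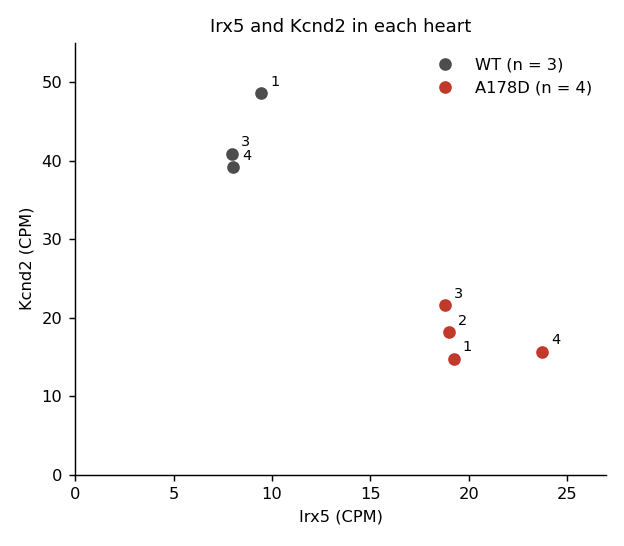
*Irx5* CPM (horizontal axis) against *Kcnd2* CPM (vertical axis), 1 point per heart, numbered by replicate. WT hearts lie between 7.98 and 9.46 CPM of *Irx5* and A178D hearts between 18.8 and 23.7 CPM, and within neither genotype does the order of the hearts in *Kcnd2* simply invert that in *Irx5*.

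*Irx3* and *Kcnd2* were also in inverse order between genotypes. Among the WT hearts they ran in inverse order too, *Irx3* from high to low through replicates 4, 3 and 1 and *Kcnd2* through 1, 3 and 4, but not within A178D, where replicate 1 had the lowest level of both. The sum of *Irx3* and *Irx5* was 44.7, 43.9 and 46.6 CPM in WT replicates 1, 3 and 4 and 71.7, 80.2, 78.7 and 92.8 CPM in A178D replicates 1 to 4. *Kcnd3* and *Kcnd2* differed in order too, since A178D replicate 1 had the lowest *Kcnd2* and the highest *Kcnd3* of the A178D hearts.

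To compare genes with each other, CPM was divided by exon length in kb (RPKM). In WT the level per length was highest for *Kcnip2* (26.3 ± 0.752 RPKM), followed by *Irx4* (19.2 ± 2.45), *Irx3* (13.3 ± 0.633), *Kcnd2* (8.32 ± 0.969), *Irx5* (2.71 ± 0.269), *Kcnd3* (2.69 ± 0.306), *Irx1* (1.80 ± 0.817) and *Irx2* (0.805 ± 0.371; SD, n = 3 for each). *Irx5* and *Kcnd3* could not be separated beyond their spread, while *Irx1* was above *Irx2* in every heart, at 2.06 to 2.34 times its RPKM over both genotypes. In A178D the order was *Kcnip2* (23.7 ± 1.45 RPKM), *Irx3* (22.0 ± 2.46), *Irx4* (21.4 ± 2.02), *Irx5* (6.46 ± 0.754), *Kcnd2* (3.41 ± 0.591), *Irx1* (2.43 ± 0.470), *Kcnd3* (2.29 ± 0.406) and *Irx2* (1.13 ± 0.254; SD, n = 4 for each). There the first 3 genes overlapped, the range of *Irx1* met those of *Kcnd2* and *Kcnd3* (although *Kcnd2* was above *Irx1* in each heart), and *Irx5* and *Kcnd2* had changed places. *Irx6* was last in both genotypes, at a mean of 0.016 RPKM in WT and 0.0083 RPKM in A178D. These means rest on 0 to 4 counts per heart and take a count of 0 as 0, so no difference is read from them.

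The make-up of the Iroquois genes, as shares of their summed RPKM, differed between genotypes, with larger shares of *Irx3* and *Irx5* and a smaller share of *Irx4*. The shares depend on each other, and the level of *Irx4* itself was not lower in A178D (21.4 against 19.2 RPKM on average, with overlap), so that its smaller share follows from the larger sum. *Irx5* made up 6.62 to 7.88% of the sum in WT hearts and 11.6 to 12.5% in A178D hearts. *Irx4* made up 45.3 to 55.6% in WT and 37.9 to 41.5% in A178D, and *Irx3* made up 33.3 to 38.2% and 38.7 to 42.3%. None of these 3 shares overlapped between genotypes. The sum itself was 36.5 to 38.5 RPKM in WT and 49.1 to 60.6 RPKM in A178D.

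The make-up of the pore subunit genes differed as well. *Kcnd2* made up 74.7, 76.1 and 74.1% of the summed RPKM of *Kcnd1*, *Kcnd2* and *Kcnd3* in WT replicates 1, 3 and 4, and 52.1, 59.6, 61.9 and 63.5% in A178D replicates 1 to 4. *Kcnd3* took up most of the rest, with 23.2 to 25.4% in WT and 35.4 to 47.0% in A178D, while *Kcnd1*, named after its values were seen, stayed at or under 1.31% in every heart. The level of *Kcnd3* itself was not higher in A178D (2.29 against 2.69 RPKM on average, with overlap), and its larger share follows from the lower *Kcnd2*. The summed level was 10.3 to 12.6 RPKM in WT and 4.79 to 6.77 RPKM in A178D, without overlap. The RPKM of *Kcnip2* was 2.08 to 2.59 times the summed pore subunit RPKM in WT and 3.60 to 5.16 times in A178D, while *Kcnip2* itself was not higher there.

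**Figure D3:**
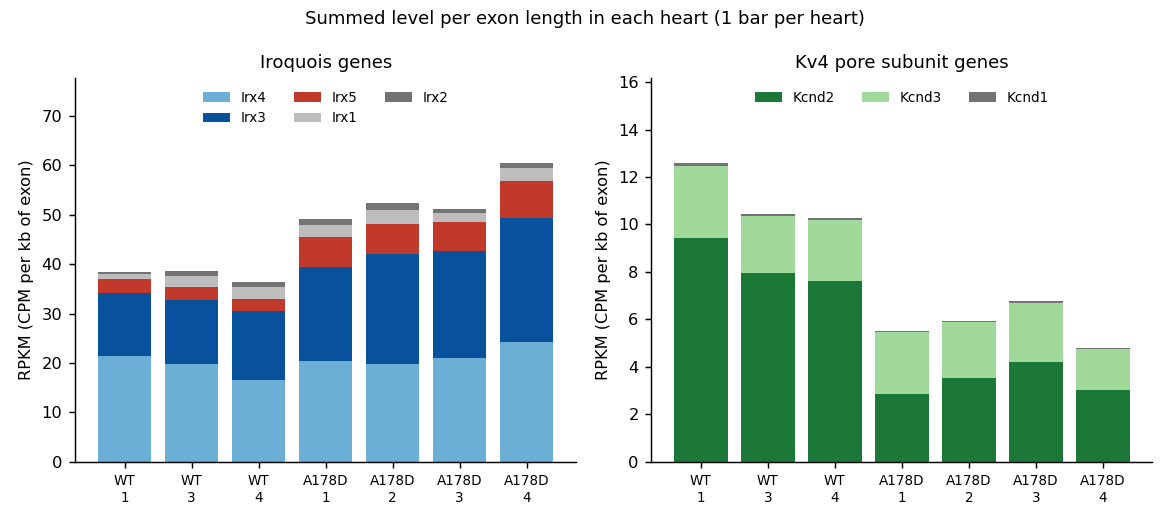
Stacked RPKM (vertical axes, from 0) of the Iroquois genes (left; *Irx6*, at most 0.0588% of the sum, is left out) and of the Kv4 pore subunit genes (right), 1 bar per heart. The Iroquois sum is 36.5 to 38.5 RPKM in WT and 49.1 to 60.6 RPKM in A178D, and the Kv4 sum 10.3 to 12.6 RPKM and 4.79 to 6.77 RPKM.

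The Iroquois genes share a homeobox, and it is printed for *Irx3* and *Irx5* to show how alike the genes that differed between genotypes are, and whether reads could be assigned to them. The stretch is the 63 coding codons (the length of this class of homeodomain) of *Irx5* that were most alike in the other 5 Iroquois genes, from GENCODE M21 transcripts. In *Irx3* it lies in exon 2, at chr8:91800487-91800675 on the minus strand, and in *Irx5* it lies in exon 2, at chr8:92359636-92359824 on the plus strand (GRCm38). Capitals mark the 17 bases that differ between the 2 genes, which were 91.0% identical.
Irx3: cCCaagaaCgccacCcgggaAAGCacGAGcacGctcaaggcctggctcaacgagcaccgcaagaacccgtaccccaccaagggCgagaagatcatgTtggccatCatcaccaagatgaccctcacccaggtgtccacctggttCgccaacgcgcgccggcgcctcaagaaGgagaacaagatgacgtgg
Irx5: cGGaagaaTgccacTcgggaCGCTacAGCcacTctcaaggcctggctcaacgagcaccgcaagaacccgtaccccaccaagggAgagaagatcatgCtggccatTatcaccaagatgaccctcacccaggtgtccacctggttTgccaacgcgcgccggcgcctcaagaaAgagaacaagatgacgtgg

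The differing bases gather at the start of the stretch, and the middle and the end are nearly the same in both genes. Identity to *Irx5* over this stretch was 87.3% in *Irx1*, 89.9% in *Irx2*, 88.4% in *Irx4* and 89.9% in *Irx6*. Reads were 76 bases from each end. The longest identical run between *Irx3* and *Irx5* transcripts was 50 bases and that between *Irx2* and *Irx5* was 65 bases, both shorter than a read. *Irx3* and *Irx6* shared a run of 88 bases, so that a read could fall wholly within it, and the 0 to 4 counts of *Irx6* are uncertain for that reason. *Kcnd2* and *Kcnd3* transcripts shared at most 23 bases.

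Antisense genes overlap exons of 3 of the genes by 124 to 165 bases, *Irx3os* at *Irx3*, *Gm45505* at *Irx6* and *Kcnd3os* at *Kcnd3*. These antisense genes have no entry in the count table used here. The libraries were stranded, but the strand setting of the counting is not given in the sources used here, so reads of *Irx3*, *Irx6* and *Kcnd3* cannot be fully told apart from those of their antisense partners. No antisense gene overlaps the span of *Irx5*, *Kcnd2* or *Kcnip2*.

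Position was not used to choose the genes, and their neighbours were examined for that reason. *Irx3* (chr8:91798525-91802067), *Irx5* (chr8:92357625-92376286) and *Irx6* (chr8:92674288-92680956) form a cluster, in which 556 kb separate *Irx3* from *Irx5* and 298 kb separate *Irx5* from *Irx6*. Of 9 other tested genes within 1 Mb of this cluster, 0 were called higher and 1 lower by edgeR, which called 2.35% of all tested genes. The median log2 fold change of the 9 was -0.05. The gene called lower was *Ces1d*, a carboxylesterase gene 485 kb beyond *Irx6*, with 211, 249 and 288 CPM in WT replicates 1, 3 and 4 and 141, 151, 119 and 136 CPM in A178D replicates 1 to 4. All A178D hearts were below all WT hearts, and *Ces1d* fell by 0.86 on the log2 scale (SE 0.10, edgeR, Benjamini-Hochberg adjusted p = 0.00106). The nearest tested gene on the other side, *Fto*, which lies 130 kb from *Irx3* and is known to hold enhancers of *Irx3* in its introns, had a log2 fold change of -0.14 (adjusted p = 0.304 by edgeR with Benjamini-Hochberg adjustment). *Fto* was named after its values were seen.

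*Irx1* (chr13:71957921-71963723), *Irx2* (chr13:72628820-72634198) and *Irx4* (chr13:73260479-73269608) form the other cluster. Of 11 other tested genes within 1 Mb, 1 was called higher and 1 lower, against 2.35% of all tested genes called. Nothing is read from the counts at either cluster. *Tppp*, which encodes a tubulin-binding protein, stood at 31.8, 36.8 and 38.3 CPM in WT replicates 1, 3 and 4 and at 25.2, 25.7, 24.5 and 22.3 CPM in A178D replicates 1 to 4. The groups did not overlap, and the log2 fold change was -0.54 (SE 0.09, edgeR, Benjamini-Hochberg adjusted p = 0.0077). This call was lost without WT replicate 3 (adjusted p = 0.0642, edgeR) and without WT replicate 4 (adjusted p = 0.0547), the range over all alternatives being 9.91e-06 to 0.0642. *Slc9a3*, a sodium-proton exchanger gene, was near the limit of detection, with 0.419, 0.422 and 0.615 CPM in WT replicates 1, 3 and 4 and 1.86, 0.854, 1.83 and 1.33 CPM in A178D replicates 1 to 4. The groups did not overlap, and *Slc9a3* rose, with a log2 fold change of 1.6 (SE 0.36, edgeR, Benjamini-Hochberg adjusted p = 0.0337). Its call held without A178D replicate 2 or 4 and was lost without any other heart, with an adjusted p of up to 0.166 (edgeR). Over all alternatives its adjusted p ran from 0.0020 to 0.166, and limma-voom did not call it.

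*Kcnd2* (chr6:21215503-21729805, plus strand), *Kcnd3* (chr3:105452330-105674002, plus strand) and *Kcnip2* (chr19:45791839-45816061, minus strand) lie on separate chromosomes. Within 1 Mb of them 4, 20 and 35 other genes were tested, and 0 were called by edgeR at any of the 3 loci. An unadjusted p under 0.05 was found for 0, 5 and 5 of them. Over all tested genes edgeR called 2.35%, and 16.7% had an unadjusted p under 0.05, so nothing is read from these counts. DESeq2 called 1 gene near *Kcnd3* and 0 near *Kcnd2* and *Kcnip2*, and limma-voom called 0 at these loci. *Kcnd2* thus lay among genes with log2 fold changes from -0.18 to 0.10.

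**Figure D4:**
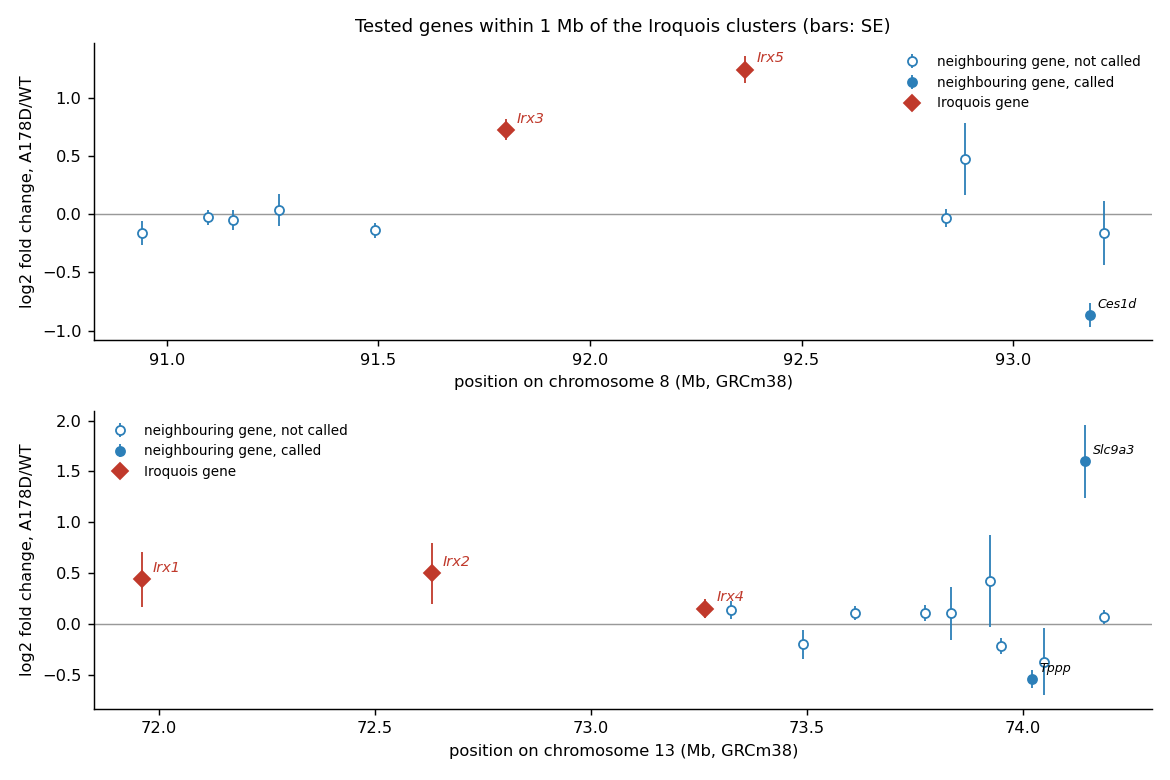
Log2 fold change (A178D over WT, vertical axes, bars SE) of tested genes within 1 Mb of the Iroquois clusters against position in Mb (GRCm38), chromosome 8 above and chromosome 13 below. Diamonds are Iroquois genes, filled circles neighbouring genes called by edgeR (*Ces1d* at -0.86, *Tppp* at -0.54 and *Slc9a3* at 1.6), and open circles those not called.

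Promoters were read from RefSeq (GRCm38.p6) as the 250 bases before the RefSeq start of each gene, which is not always the GENCODE start. Against the GENCODE spans, the window of *Irx3* lies wholly inside the gene and that of *Irx4* reaches 18 bases into it, while 157 bases separate the window of *Kcnd2* from its gene, 440 that of *Kcnd3* and 2 that of *Kcnip2*. The table matched 6 of the 9 genes, *Irx2*, *Irx3*, *Irx4*, *Kcnd2*, *Kcnd3* and *Kcnip2*, and had no entry for *Irx1*, *Irx5* and *Irx6*. The Iroquois motif ACANNTGT, which reads the same on both strands, was in 0 of the 6 windows and in 6.31% of all 32851 windows of this length. No match says only that these letters are not in the window. The box CACCC, searched on both strands (GGGTG on the other), is of the type that Klf factors bind, and *Klf15* is known to act on *Kcnip2*. It was in all 6 windows and in 52.0% of all windows. *Kcnip2* and *Irx4* had 4 matches each, *Irx3* had 3, *Kcnd3* had 2, and *Kcnd2* and *Irx2* had 1 each, while 3 or more were in 6.92% of all windows. The windows of *Kcnd2* (chr6:21215096-21215345, plus strand, 68.8% G and C) and *Kcnip2* (chr19:45816064-45816313, minus strand, 66.8% G and C) are printed to set a pore subunit gene that differed between genotypes beside its partner, which differed little, with CACCC or GGGTG in capitals.
Kcnd2: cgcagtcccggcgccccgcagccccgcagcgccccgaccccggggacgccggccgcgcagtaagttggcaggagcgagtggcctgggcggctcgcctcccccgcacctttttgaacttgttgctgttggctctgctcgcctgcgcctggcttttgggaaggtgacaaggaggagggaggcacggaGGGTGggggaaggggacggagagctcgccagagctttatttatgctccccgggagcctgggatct
Kcnip2: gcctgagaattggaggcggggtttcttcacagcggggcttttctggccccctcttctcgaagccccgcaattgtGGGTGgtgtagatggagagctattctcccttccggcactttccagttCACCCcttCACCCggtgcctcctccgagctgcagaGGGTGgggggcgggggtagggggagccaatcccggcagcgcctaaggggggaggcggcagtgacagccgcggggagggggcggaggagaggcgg

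Genes that share a pathway with these were taken from 5 lists by role, 58 distinct tested genes in all. Of these 58 genes 1 rose, 0 fell and 15 had an unadjusted p under 0.05 (edgeR), where 2.35% of all tested genes were called and 16.7% had an unadjusted p under 0.05. Nothing is read from these shares. The median log2 fold change of the 58 genes was -0.05, against 0.0023 over all tested genes. DESeq2 called 3 of the 58 lower and limma-voom 1.

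Of 13 tested genes of other subunits of the Kv4 and slow outward currents, 0 were called by edgeR, DESeq2 or limma-voom, and 3 had an unadjusted p under 0.05 in edgeR. *Kcnip3*, a relative of *Kcnip2*, *Kcne4* and *Kcnab2*, which encode further accessory subunits, stood at 2.50 to 3.80 CPM on average in WT, with log2 fold changes of -0.19 (SE 0.22), 0.07 (SE 0.17) and 0.07 (SE 0.19). *Kcna4*, the gene of the slow transient outward current, was named after its values were seen. It stood at 1.79, 1.61 and 1.55 CPM in WT replicates 1, 3 and 4 and at 1.83, 2.73, 3.72 and 3.12 CPM in A178D replicates 1 to 4. The A178D hearts were above the WT hearts, replicate 1 only just, and the difference did not pass the test (log2 fold change 0.79, edgeR, Benjamini-Hochberg adjusted p = 0.115). The accessory gene *Dpp6* had 0 to 0.347 CPM and *Dpp10* 0 to 0.0379 CPM in any heart. Both were named after their values were seen, and neither was tested.

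Among 17 other repolarising channel genes, 0 were called by edgeR, 4 had an unadjusted p under 0.05, and DESeq2 and limma-voom called 1 each. The 4 most abundant were *Abcc9*, *Kcnj11*, *Kcnk3* and *Kcnj5*, which encode subunits of ATP-sensitive, background and acetylcholine-gated potassium channels, with log2 fold changes of -0.15, -0.00274, 0.10 and -0.04. *Kcnj3*, the partner subunit of *Kcnj5*, and *Kcna5*, the gene of an ultrarapid delayed rectifier, were named after their values were seen. *Kcnj3* stood at 45.6, 50.8 and 51.9 CPM in WT replicates 1, 3 and 4 and at 32.8, 38.8, 41.1 and 25.8 CPM in A178D replicates 1 to 4. The groups did not overlap, and the log2 fold change of -0.51 (SE 0.13) missed the threshold in edgeR (Benjamini-Hochberg adjusted p = 0.0529). *Kcna5* had a log2 fold change of -0.36 (SE 0.12, edgeR, Benjamini-Hochberg adjusted p = 0.134), smaller in size than that of *Kcnd2*. *Kcna7*, also named after its values were seen, went the other way, at 17.8 to 20.2 CPM in WT and 21.6 to 22.4 CPM in A178D. Its log2 fold change was 0.196 (SE 0.08, edgeR, Benjamini-Hochberg adjusted p = 0.262). Of the 17 genes, 4 had a log2 fold change above 0.

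Of 12 tested regulators that act with Iroquois factors or on these channel genes, 0 were called by edgeR and by limma-voom, 5 had an unadjusted p under 0.05, and DESeq2 called 2. *Smyd1*, which encodes a muscle methyltransferase known to act with Irx5 on *Kcnd2*, had a log2 fold change of 0.20 (SE 0.07, edgeR, Benjamini-Hochberg adjusted p = 0.177), and its groups overlapped. The cardiac transcription factor genes *Gata4*, *Tbx20* and *Mef2c* had log2 fold changes of 0.16, -0.13 and -0.08. *Hey2*, a repressor gene of the compact ventricular wall, was named after its values were seen, as was *Klf15*. *Hey2* stood at 8.52, 7.19 and 7.95 CPM in WT replicates 1, 3 and 4 and at 4.46, 5.50, 5.95 and 5.65 CPM in A178D replicates 1 to 4. All A178D hearts were below all WT hearts, and the log2 fold change of -0.55 (SE 0.14) fell just short of the threshold in edgeR (Benjamini-Hochberg adjusted p = 0.05004). *Klf15* had a log2 fold change of -0.49 (SE 0.12, edgeR, Benjamini-Hochberg adjusted p = 0.0516), with overlapping groups, since WT replicate 1 stood at 65.7 CPM and A178D replicate 4 at 69.8 CPM.

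The gap junction genes, some of which *Irx3* is known to regulate in the conduction system, differed little. Of 3 tested, 0 were called by edgeR, DESeq2 or limma-voom and 0 had an unadjusted p under 0.05. *Gja1*, the main ventricular connexin gene, had a log2 fold change of 0.04 (SE 0.09), *Gja5*, the connexin gene of fast-conducting fibres, -0.05 (SE 0.11), and *Gjc1* -0.11 (SE 0.09).

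Of 14 tested genes of trabecular and conducting myocardium, 1 rose and 0 fell by edgeR, 3 had an unadjusted p under 0.05, and DESeq2 and limma-voom each called 1. *Nppa*, the atrial natriuretic peptide gene, which is active in trabecular myocytes and in the stressed ventricle, stood at 249, 188 and 109 CPM in WT replicates 1, 3 and 4 and at 529, 364, 322 and 588 CPM in A178D replicates 1 to 4. The groups did not overlap, and *Nppa* rose by 1.31 on the log2 scale (SE 0.24, edgeR, Benjamini-Hochberg adjusted p = 0.0146). The call was lost without WT replicate 3 (adjusted p = 0.0861, edgeR), WT replicate 4 (0.0598) or A178D replicate 1 (0.0555), the range over the alternatives being 0.00104 to 0.0861. *Nppb*, *Cacna1g* and *Tbx3* had log2 fold changes of 0.80 (SE 0.30), 0.04 (SE 0.12) and -0.14 (SE 0.11), and none passed the test. *Cntn2*, a marker of the conduction system that was named after its values were seen, stood at 1.83, 5.14 and 3.72 CPM in WT replicates 1, 3 and 4 and at 10.8, 14.3, 6.14 and 5.10 CPM in A178D replicates 1 to 4. Its groups met at their edges, where A178D replicate 4 lay below WT replicate 3, and its log2 fold change was 1.36 (SE 0.36, edgeR, Benjamini-Hochberg adjusted p = 0.0655).

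The listed smooth muscle markers were lower in A178D, as *Kcnd2* was. Of 6 markers of smooth muscle cells and pericytes, edgeR called 4 lower (*Acta2*, *Myh11*, *Tagln* and *Cnn1*) and none higher. *Acta2* was the most abundant. All 6 had an unadjusted p under 0.05 in edgeR. Over all tested genes edgeR called 1.31% lower, and 16.7% had an unadjusted p under 0.05. DESeq2 called all 6 markers lower and limma-voom 4. The pericyte markers *Rgs5* and *Pdgfrb*, named after their values were seen, had a log2 fold change of -0.33 each and did not pass in edgeR (Benjamini-Hochberg adjusted p = 0.0653 and 0.0863). The groups of *Pdgfrb* overlapped and those of *Rgs5* did not. Leaving out any heart kept the calls of *Acta2* and *Tagln*, while that of *Myh11* was lost without WT replicate 3 or 4 and that of *Cnn1* without any heart but A178D replicate 4. *Rgs5* was called without A178D replicate 4 and *Pdgfrb* without WT replicate 4, and the number called lower was lowest, at 2, when WT replicate 3 was left out and at most 5. Over all alternatives the adjusted p of *Myh11* reached 0.0547 and that of *Cnn1* 0.109, and it ran from 0.0127 to 0.226 for *Rgs5* and from 0.0261 to 0.325 for *Pdgfrb* (Benjamini-Hochberg, edgeR, DESeq2 or limma-voom). The summed level of the 6 markers was 705, 703 and 658 CPM in WT replicates 1, 3 and 4 and 437, 508, 530 and 469 CPM in A178D replicates 1 to 4, without overlap. Their part in the levels of *Irx5*, *Irx3* and *Kcnd2* was not tested. By edgeR 0 of 6 fibroblast genes, 0 of 5 endothelial genes and 0 of 5 macrophage genes were called, with 3, 0 and 3 at an unadjusted p under 0.05. DESeq2 called 1 fibroblast and 1 macrophage gene, and limma-voom 0. In the epicardial list, 2 of 5 genes were tested and 0 called by edgeR, DESeq2 or limma-voom, and *Upk3b*, *Msln* and *Upk1b* were at or near 0. Of 6 tested genes of neurons and Schwann cells 0 were called by edgeR, DESeq2 or limma-voom, with 0 at an unadjusted p under 0.05, and *Th* and *Snap25* were at or near 0.

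The genes whose log2 CPM followed *Irx5* most closely over the 7 hearts, with genes under a mean of 50 counts left out, were *Prune1*, *Pctp*, *Ccnq*, *Gsto1* and *Dct*, with Pearson coefficients from 0.986 to 0.992. *Dct* had the largest log2 fold change among them, 0.86 (SE 0.15), and *Prune1* the smallest, 0.25 (SE 0.07). Those most like *Kcnd2* were *Baz1b*, *Cmip*, *Epn2*, *Pfas* and *Abcc5*, from 0.984 to 0.993, with log2 fold changes from -0.36 (*Pfas*) to -0.22 (*Epn2*). All of these were smaller in size than the log2 fold change of *Kcnd2*. The coefficients are descriptions over hearts in separate genotype clusters and carry no p.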

How the data were processed

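The authors deposited raw counts per gene from stranded poly(A) libraries of left ventricle, sequenced from both ends. The submitters' processing notes name HISAT2 2.1.0, SAMtools 1.6 and GRCm38, and the counting program is not given in the sources used here. A second table of these counts scaled by DESeq2 1.26.0 was not used here. Of 21257 entries, 20927 were left after 2 steps, and each of them is counted as a gene here. Entries with the same identifier and counts as another were removed, and where entries with a total of 30 or more had equal counts in all libraries, 1 was kept. Entries that share an identifier but differ in counts, such as those of *Taf6l*, were kept apart. Between 17.6 and 20.3% of counts from 1 to 20 were odd, so counts may hold each fragment by both ends. Higher counts were not examined for this. Ensembl identifiers were named from GENCODE M21.

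A178D was compared with WT in edgeR 4.0.16 (R 4.3.3), with TMM, glmQLFit and glmQLFTest and genotype as the sole term. A gene was tested where 3 or more libraries had 10 or more counts, and called at a Benjamini-Hochberg adjusted p under 0.05. CPM values were scaled with TMM. The alternatives were DESeq2 1.42.0, its size factors in edgeR, limma-voom 3.58.1, other filters on low counts, a replicate block, a threshold of 0.01, offsets for transcript length and GC content (mgcv 1.9.3), the table as deposited, and leaving out each library. The fit was tested on simulated data.

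The members and lists were chosen with earlier results of these data known. Genes were named by a rule: all 9 members, every called gene of the lists or within 1 Mb, the 4 most abundant further genes of each list, and the 5 genes most like *Irx5* and *Kcnd2*. Some genes that this rule takes are not reported here. Genes outside it are said to be named after their values were seen, and this holds for every named cell type marker outside it. The lists of genes by role and the 8 lists of cell type markers were written by gene name. Each heart is a separate animal, and the p-values set the difference between genotypes against the spread between these hearts.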

Additional observations from a re-analysis of the deposited data

Results flagged for a closer look

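In groups of 4 hearts, a single value was taken as far from the others where its gap to the nearest took up more of the whole range than Dixon's 95% limit allows. Of 31 genes examined in the A178D hearts, 2 met this, and chance alone picks out about 1 in 20 groups. *Irx5* in A178D replicate 4 stood at 23.7 CPM, against 18.8, 19.0 and 19.2 CPM in the other A178D hearts (gap over range 0.914). *Tbx20*, a cardiac transcription factor gene, stood at 93.7 CPM in the same heart, against 112, 113 and 115 CPM (gap over range 0.866). That heart differed from the other A178D hearts across the library and not in these genes alone. Over all 13894 tested genes, 4.19% had their far value in it, against 0.698 to 1.02% in each other A178D heart. Its log2 CPM had a Pearson coefficient of 0.986 with each of them, against 0.989 to 0.991 among them. It also had the lowest total, 33080675 counts. Short transcripts ran high in it and long ones low, by a median of 0.16 for transcripts of up to 2263 bases and -0.18 for those from 4866 bases, on the log2 scale against the mean of the other A178D hearts. In the other 6 hearts, each against the rest of its genotype, these medians ran from -0.08 to 0.05 and from -0.04 to 0.08. The cause was not tested. The log2 fold change of *Irx5* was 1.16 without this heart and 1.21 with offsets for length and GC content.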

How the results depend on the processing

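All 8 tested Iroquois and Kv4 genes kept their direction in all 15 alternatives, with log2 fold changes from 1.16 to 1.34 for *Irx5*, 0.66 to 0.79 for *Irx3* and -1.40 to -1.18 for *Kcnd2*. The counts over all genes were less stable, and the cause was not tested. Against 145 genes called higher and 182 lower, DESeq2 called 290 and 375, an adjusted p under 0.01 left 24 and 40, and the length and GC offsets gave 284 lower. Leaving out a heart gave 22 to 215 higher and 31 to 238 lower, with the fewest without WT replicate 3. List genes called higher (1) were 2 with no filter, with the offsets and with the replicate block, 0 at an adjusted p under 0.01, and 0 to 2 without a heart. List genes called lower (0) were 3 by DESeq2, with no filter and with the offsets, 1 by limma-voom, 2 with the replicate block, and 0 to 2 without a heart. Neighbouring genes called (3) were 1 to 4 without a heart. The same alternatives were applied to the smooth muscle and pericyte markers after seeing the data, and those called lower (4) were 6 by DESeq2 and with the offsets, 5 with no filter, 3 with the replicate block, 2 at an adjusted p under 0.01, and 2 to 5 without a heart. The replicate block gave 124 genes higher and 147 lower. Deviations of same-numbered hearts had correlations of 0.003, -0.040 and -0.042, and those of other WT and A178D pairs ran from -0.070 to 0.066. By the study's methods WT and A178D mice were bred as littermates. A correlation over all genes could miss a pairing that acts on part of them, so pairing is not excluded. The main fit did not use the numbers as pairs. With 3 and 4 hearts, small differences such as those of *Irx4*, *Kcnd3* and *Kcnip2* are limited by the spread between hearts.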
